A study of Mus musculus with 8 samples.

Results

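How λ820 cells, a murine lymphoma culture with Myc as its driver, respond at the transcript level to the ATR inhibitor VE-821 alone was measured on Illumina bead arrays, 1 array per RNA sample. Cells had received 10 µM VE-821, and the controls the solvent DMSO diluted 1 to 1000. Both groups grew in RPMI with fetal bovine serum and were collected 24 h after treatment began. Each group had 2 arrays, so n = 2 holds for every group value below. The series, 8 arrays in all, also holds cells given 10 µM RVX2135, an inhibitor of BET bromodomain proteins, alone or with VE-821, and it asks whether such drugs act together. All groups come from the 1 line, so its Myc-driven state is shared by treated and control cells. Nothing in the labels says that replicates came from separate cultures. The p-values thus rest on how far these samples differ from each other, and that spread may be technical.

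A named probe was kept if its detection p was under 0.05 on both arrays of VE-821 or both arrays of DMSO. This kept 10530 of 23978 named probes and of 25697 probes in all, and they stood for 7587 of 16593 genes with a named probe. Values below are log2 normalized intensities of the brightest probe of each gene, and a difference is VE-821 minus DMSO on that scale. A gene was called higher or lower where limma's moderated test gave an adjusted p under 0.05 over all kept probes. Replicate arrays correlated at 0.9954 for VE-821 and 0.9958 for DMSO, and the median standard error (SE) of a difference was 0.12. Of 2061 genes with several kept probes, 1626 had the same call on all of them and only Actb and Mdm2 had probes called in opposite directions.

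ATR is the kinase that responds to stretches of single-stranded DNA at stalled replication forks. With its partner ATRIP it activates the kinase CHK1, which restrains origin firing and entry into mitosis. Cells with high Myc activity are known for strong replication stress, which is why ATR is studied as a target in Myc-driven lymphoma. A separate pathway, the integrated stress response, starts from kinases that phosphorylate the translation factor eIF2 and raises the transcription factors ATF4 and CHOP (gene Ddit3), whose targets include amino acid synthesis, amino acid import and tRNA charging.

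VE-821 changed 1844 of 7587 genes, with 934 called higher and 910 called lower, or 12.3% and 12% of all genes tested. The rises were larger than the falls, as 182 genes were called higher by at least 2-fold (2.4%) against 58 called lower by at least 2-fold (0.764%). The median over all genes was -0.02. In the gene lists examined, integrated stress response, NF-kappaB, interferon-stimulated and histone genes were called higher above these shares, and adhesion, B cell receptor, DNA replication and mitosis genes were called lower above them. Dropping VE-821 replicate 1 gave 1265 called genes and dropping its replicate 2 gave 896, while dropping DMSO replicate 1 gave 984 and dropping its replicate 2 gave 1143.

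**Figure D1:**
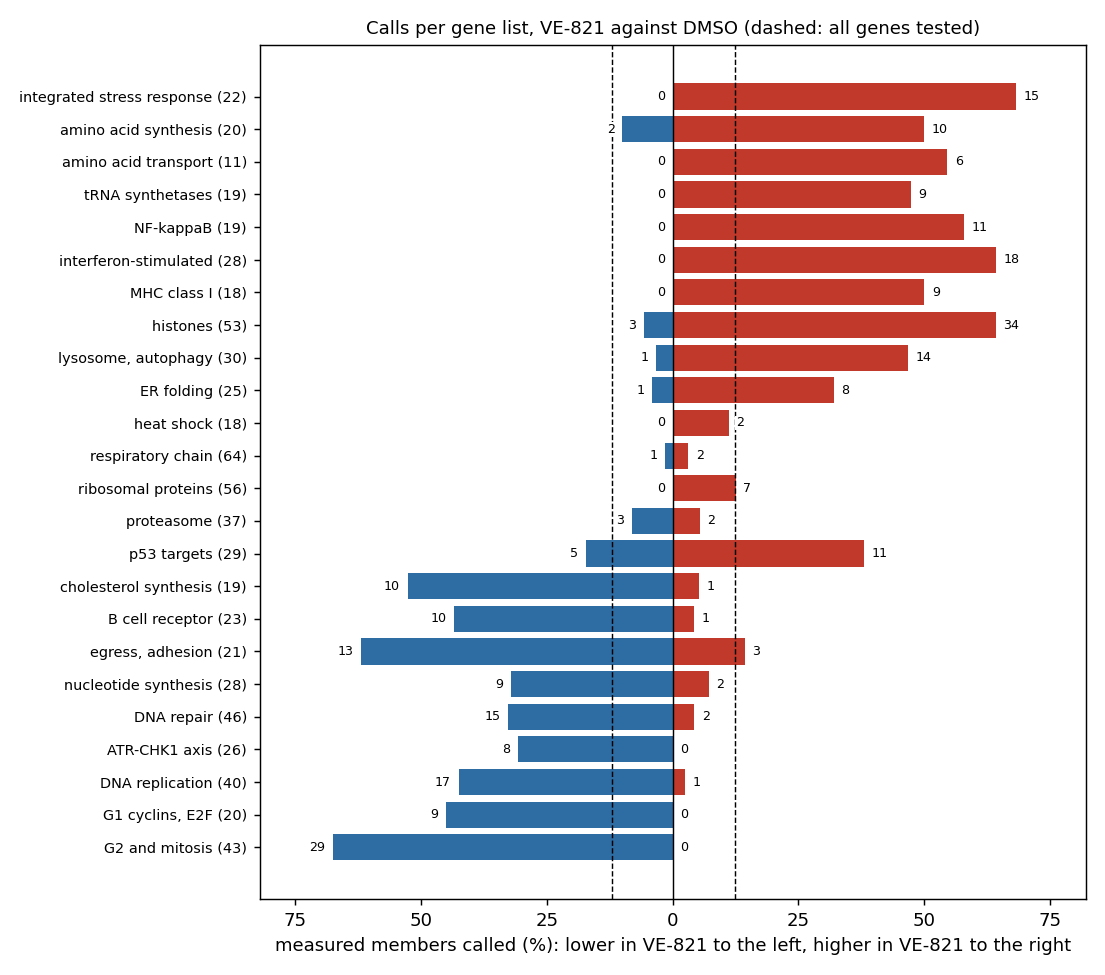
Share of measured members called lower (blue, to the left) or higher (red, to the right) in VE-821 than in DMSO, in percent, for 24 gene lists, with the number of measured members in brackets and the number called at each bar's end. The dashed lines mark the shares over all genes tested, 12.3% higher and 12% lower; 15 of 22 integrated stress response genes and 29 of 43 G2 and mitosis genes lie at the far ends.

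The labelled cell type was checked against markers. Of 10 B cell markers with a named probe 7 were measured, while the probes of Ms4a1, Pax5 and Blk were not detected. The summed linear level of the 7 was 3595.2 and 3114.2 in VE-821 and 5624.3 and 5410.8 in DMSO, with 4 of 7 called lower and 1 higher. Of 13 plasma cell markers with a named probe 8 were measured, while Prdm1, Jchain, Derl3, Tnfrsf17 and Ell2 were not detected. Their sum was 12032.2 and 11040.5 in VE-821 and 12474.7 and 12732.6 in DMSO, with 2 called higher and 2 lower. Markers outside these lists were mostly at background. Measured were 4 of 18 T and NK cell genes and 4 of 17 myeloid genes. Among the rest, 1 of 10 erythroid and platelet genes and 3 of 14 stromal and endothelial genes were measured. For the stromal and endothelial markers the sum was 123.1 and 122.8 in VE-821 and 168.5 and 162.4 in DMSO, with 1 of 3 called lower. For the myeloid markers it was 180.3 and 206.0 in VE-821 and 128.7 and 142.9 in DMSO, with Itgam, Lyz2, Adgre1 and Cd14 not detected. For the T and NK cell markers it was 653.5 and 695.1 in VE-821 and 491.9 and 511.8 in DMSO, most of it Prf1, with Cd3e, Cd4 and Cd8a not detected. Of the 4 measured T and NK cell genes 1, Prf1 (0.66), was called higher. Cd2 (-0.66) and Cd3g, which was not detected in VE-821, were called lower. Cd3g missed the test under 8 alternatives, among them each of the 4 arrays left out, and Cd2 missed it under 2. The part of such cells in the results was not tested. In RNA from a whole culture, fewer cells of a type and less RNA per cell cannot be told apart.

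The transcription factors of the integrated stress response rose. Ddit3, which encodes CHOP, stood at 9.03 and 9.42 in VE-821 and at 5.66 and 6.11 in DMSO, a 10.2-fold rise (difference 3.34, SE 0.18, adjusted p = 2.36e-07). Atf5, a related factor that CHOP and ATF4 are known to induce, reached 10.08 and 9.99 in VE-821, against 6.81 and 6.93 in DMSO, and Atf4 reached 11.31 and 11.36 in VE-821, against 9.69 and 9.81 in DMSO. These differences were 3.16 and 1.59 (SE 0.12 each). In each of the 3 genes both treated arrays lay far above both control arrays. Atf3, another stress-induced factor of the family, read 6.99 and 6.81 in VE-821 and 5.10 and 4.92 in DMSO, a 3.7-fold rise.

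Effectors of the same response rose too. Nupr1, a small stress-induced nuclear protein, gave 8.14 and 8.56 in VE-821, but was not detected on either DMSO array, so it rose at least 12.9-fold (adjusted p = 2.97e-08). Chac1, an enzyme that degrades glutathione, gave 9.60 and 9.55 in VE-821 and 6.16 and 6.43 in DMSO, a 9.72-fold rise. The pseudokinase gene Trib3 gave 7.12 and 7.13 in VE-821 and 4.51 and 4.80 in DMSO, where it was detected on 1 of 2 arrays. Over the whole list, 15 of 22 measured members were called higher, 0 lower and 7 in neither direction, with a median difference of 1.48 against -0.02 over all genes. The count was again 15 when any 1 of the 4 arrays was left out. Some members sat near 0 and were not called, among them the eIF2 kinase genes Eif2ak1 (-0.28), Eif2ak2 (0.05) and Eif2ak3 (0.32), which were picked for mention after their values were seen.

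A promoter window from 250 bases before to 50 bases after the annotated start was available from RefSeq (build GRCm38.p6) for 20 of the 22 measured members. The letters of the composite element that ATF4 and C/EBP factors bind, TGATGNAA on either strand, occurred in 6 of these 20, in 3.97% of all 32851 promoter windows and in 2.8% of the 6282 tested genes with a window. All 6 were among the 14 members called higher that had a window. A match of letters is not a measured binding site, and a link of this or the elements below to the response was not tested. The 250 bases upstream of the start are shown for the called members with the largest rise that held a match, Nupr1 (chr7:126625471-126625720, minus strand) and Chac1 (chr2:119350992-119351241, plus strand), to show the element beside the response. Capitals mark the match, which lies at -110 to -103 in Nupr1 and at -193 to -186 in Chac1, counted from 0 at the start and reading as the reverse complement in both.
Nupr1: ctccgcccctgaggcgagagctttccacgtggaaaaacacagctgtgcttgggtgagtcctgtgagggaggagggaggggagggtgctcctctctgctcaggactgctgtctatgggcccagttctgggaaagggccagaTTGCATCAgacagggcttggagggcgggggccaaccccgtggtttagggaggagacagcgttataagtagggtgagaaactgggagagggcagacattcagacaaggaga
Chac1: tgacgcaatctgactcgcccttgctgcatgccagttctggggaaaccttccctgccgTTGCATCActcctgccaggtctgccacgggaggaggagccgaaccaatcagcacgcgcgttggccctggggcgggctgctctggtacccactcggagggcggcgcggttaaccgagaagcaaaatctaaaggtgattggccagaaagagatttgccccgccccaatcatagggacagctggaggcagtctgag

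Genes of amino acid supply rose in part. In the synthesis list 10 of 20 measured members were called higher and 2 lower, with a median of 0.27, and without any 1 of the 4 arrays 8 or 9 were higher and 0 to 2 lower. Cth, which makes cysteine from cystathionine, stood at 9.09 and 9.06 in VE-821 and at 6.63 and 6.58 in DMSO, a 5.55-fold rise (adjusted p = 5.51e-08). Gpt2, an alanine aminotransferase of mitochondria, rose 3.55-fold, and Asns, asparagine synthetase, rose 2.83-fold to 12.14 and 12.27 in VE-821, against 10.84 and 10.57 in DMSO. The serine pathway gene Psat1 rose by less, with a difference of 0.70. Of 11 measured amino acid transporters 6 were called higher and 0 lower, led by the glycine transporter Slc6a9 (1.69) and the neutral amino acid transporter Slc1a4 (1.17).

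The tRNA synthetases, which attach amino acids to tRNAs, split. Sars (1.31), Aars (1.21), Lars (0.74), Iars (0.61), Tars (0.56) and Gars (0.54), the enzymes for serine, alanine, leucine, isoleucine, threonine and glycine, rose. Tars missed the test without DMSO replicate 1 (0.48, adjusted p = 0.0547). In all 9 of 19 were called higher, 0 lower and 10 in neither direction, and leaving out any 1 of the 4 arrays left 5 or 6 called. Among genes that restrain mTORC1 signalling 7 of 19 were called higher and 3 lower. Sesn2, a leucine sensor, rose 2.38-fold, Eif4ebp1, a repressor of cap-dependent translation, rose 2.13-fold, and Pik3ip1, an inhibitor of PI3 kinase, had a difference of 1.95.

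Chaperones of the endoplasmic reticulum (ER) and the cytosol differed by small amounts. Of 25 measured ER folding genes 8 were called higher, 1 lower and 16 in neither direction, beside 5743 of 7587 not called over all genes, with a median of 0.02, and leaving out any 1 of the 4 arrays left 4 to 6 called higher. Xbp1, the transcription factor of the IRE1 branch, read 10.31 and 10.25 in VE-821 and 9.40 and 9.34 in DMSO, a 1.88-fold rise. Sel1l and Herpud1, which act in ER-associated degradation, rose 1.91-fold and 1.57-fold. The central ER chaperone Hspa5 read 7.54 and 7.66 in VE-821 and 7.19 and 7.22 in DMSO; its difference of 0.39 passed the test (adjusted p = 0.0405) but missed it under 7 alternatives, among them each of the 4 arrays left out (adjusted p 0.0569 to 0.211). Of 18 measured heat shock genes Hspa1a and Hspb1 were called higher, near the 12.3% over all genes tested. None of them was called lower, beside 12% over all genes. Hspb1 missed the test when VE-821 replicate 1 was dropped (0.34, adjusted p = 0.208), and when DMSO replicate 1 (0.57, adjusted p = 0.147) or 2 (0.76, adjusted p = 0.0536) was, and with no filter on detection (adjusted p = 0.128). Hspa1a, an inducible HSP70, was not detected on either DMSO array and rose at least 2.04-fold.

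Sqstm1, the autophagy receptor p62, which is also a target of the oxidative stress factor NRF2, stood at 10.38 and 10.61 in VE-821 and at 8.22 and 8.48 in DMSO, a 4.43-fold rise. With it 14 of 30 lysosome and autophagy genes were called higher and 1, the protease gene Ctsh, lower; without 1 of the arrays 9 to 12 were called higher. The other rises in that list were under 2-fold, such as Gabarapl1, an autophagosome protein (0.94), and Neu1, a lysosomal sialidase (0.93). Among NRF2 targets Hmox1, haem oxygenase, detected on 1 of 2 DMSO arrays, had a difference of 0.97, while Blvrb, a biliverdin reductase, fell by 0.68.

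NF-kappaB genes rose at the level of subunits and of their inhibitors. Of the subunits, Relb stood at 7.92 and 8.05 in VE-821 and at 5.02 and 5.23 in DMSO (difference 2.86, SE 0.11, adjusted p = 3.58e-08), and Nfkb2 at 7.39 and 7.37 in VE-821 and 5.14 and 5.05 in DMSO (2.29). Rela rose less, by 0.75, and Nfkb1 had no named probe. The feedback inhibitors moved with them. Tnfaip3, the ubiquitin-editing enzyme A20, gave 7.73 on both VE-821 arrays and 4.61 and 4.74 in DMSO, where it was detected on 1 of 2 arrays, an 8.29-fold rise. Nfkbie and Nfkbia, which encode the inhibitors IkappaB epsilon and alpha, rose 6.04-fold and 4.4-fold. In the list 11 of 19 were called higher and 0 lower, with a median of 1.04, and the count of rises was 11 without any 1 of the 4 arrays.

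The kappaB element was searched on either strand as a pattern of 10 letters, 2 of them any base, whose matches are the letters in capitals in the sequences shown. It occurred in 7 of the 15 measured members with a promoter window, in 1.2% of all windows and in 1.58% of tested genes. Of the 9 members called higher with a window 5 held it, and some members not called held it too. The called members with the largest rise that held a match were Nfkb2 (chr19:46304487-46304736, plus strand, the most upstream of 3 annotated starts) and Nfkbia (chr12:55492648-55492897, minus strand). The matches, in capitals, lie at -39 to -30 in Nfkb2, where the letters read the same on both strands, and at -29 to -20 in Nfkbia.
Nfkb2: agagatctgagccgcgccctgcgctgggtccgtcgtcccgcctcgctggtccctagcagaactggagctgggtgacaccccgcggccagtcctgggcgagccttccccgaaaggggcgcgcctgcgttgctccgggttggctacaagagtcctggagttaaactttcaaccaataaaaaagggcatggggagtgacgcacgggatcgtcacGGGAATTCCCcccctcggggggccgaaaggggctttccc
Nfkbia: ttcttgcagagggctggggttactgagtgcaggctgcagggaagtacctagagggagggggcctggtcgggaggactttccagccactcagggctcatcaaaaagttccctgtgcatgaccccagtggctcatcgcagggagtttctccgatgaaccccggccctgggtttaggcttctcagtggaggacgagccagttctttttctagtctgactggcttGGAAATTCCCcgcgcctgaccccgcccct

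Receptors, ligands and secreted products linked to NF-kappaB were mixed. Ltb, lymphotoxin beta, was not detected in DMSO and rose at least 3.06-fold, and Cd40, a co-stimulatory receptor of B cells, stood at 8.22 and 8.36 in VE-821 and at 6.41 and 6.53 in DMSO. Birc3, an inhibitor of apoptosis that binds TRAF proteins, rose 2.61-fold. Tnfrsf13c, the receptor for the survival factor BAFF, had values of 6.92 and 6.59 in VE-821 and 7.54 and 7.37 in DMSO, and missed the test when VE-821 replicate 2 was dropped (-0.53, adjusted p = 0.115), when DMSO replicate 1 was (-0.62, adjusted p = 0.0869), and with no filter on detection (adjusted p = 0.0708). Of 13 measured genes of the list 4 were higher and 3 lower, and 1 or 2 lower without any 1 of the arrays.

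The chemokine gene Cxcl10 had one of the largest differences of the comparison. It stood at 9.23 and 9.18 in VE-821 and at 4.77 and 5.61 in DMSO, a 16.2-fold rise (difference 4.02, SE 0.23, adjusted p = 4.4e-07). The DMSO arrays were the more variable pair. Ccl5, another chemokine that draws T cells, rose 4.42-fold, the angiogenic factor Vegfa 3.02-fold, and Ccl4 at least 1.7-fold. In all 8 of 15 measured chemokine and cytokine genes were called higher and 1 lower.

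**Figure D2:**
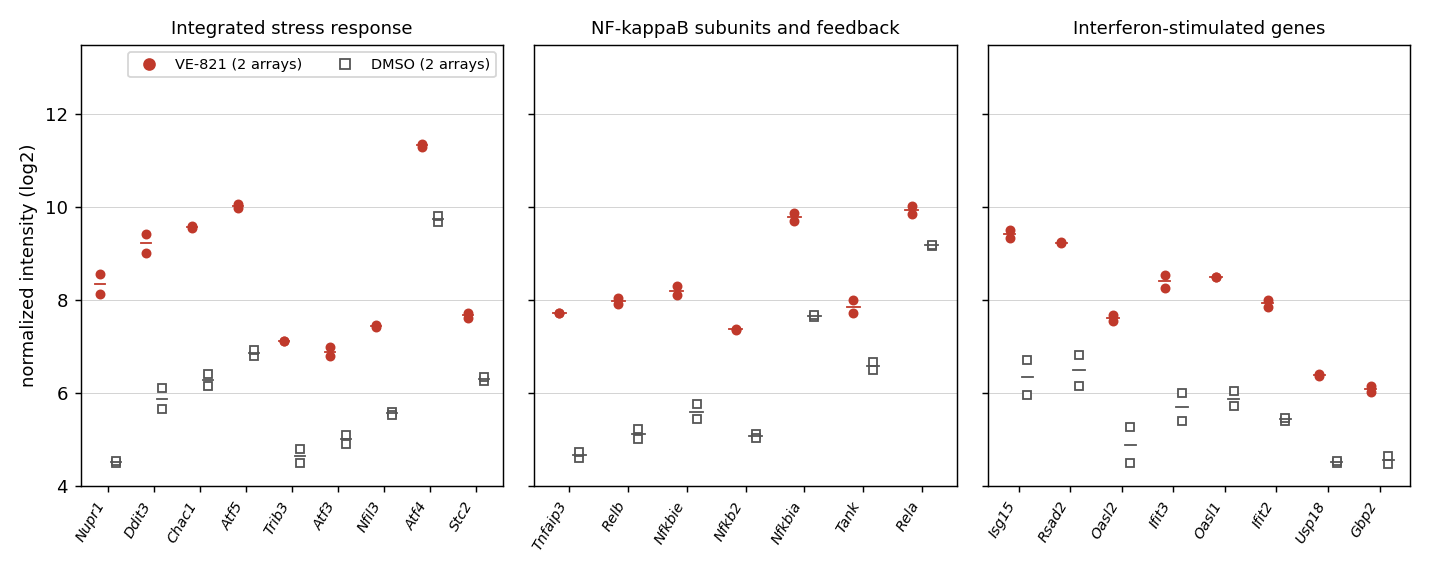
Normalized log2 intensity on each array for the named members of 3 lists, VE-821 as red circles to the left of DMSO as open squares, with short lines at the group means of 2 arrays. In the integrated stress response and NF-kappaB panels, Ddit3 lies at 9.03 and 9.42 against 5.66 and 6.11, and Tnfaip3 at 7.73 against 4.61 and 4.74; the interferon panel shows the wide spread of Isg15 in DMSO, at 5.97 and 6.72.

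Many interferon-stimulated effectors rose. Isg15, a ubiquitin-like modifier, stood at 9.52 and 9.34 in VE-821 and at 5.97 and 6.72 in DMSO (difference 3.09, SE 0.20, adjusted p = 8.05e-07). Rsad2, the antiviral enzyme viperin, rose 6.72-fold, and Oasl1 and Ifit2, which act on viral or host RNA and translation, rose 6.16-fold and 5.65-fold. Usp18, which removes ISG15 from proteins, was not detected in DMSO and rose at least 3.32-fold. Of 28 measured effectors 18 were called higher, 0 lower and 10 in neither direction, with a median of 0.69. The number called higher was 15 with detection required on all 4 arrays, and also 15 with no filter on detection.

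Of 28 sensors and signal transducers of the interferon system 8 were called higher, 2 lower and 18 in neither direction, with a median of 0.06, and leaving out any 1 of the 4 arrays left 3 to 6 called higher. Irf1, a transcription factor of interferon responses, rose 2.27-fold, to 9.58 and 9.59 in VE-821, against 8.36 and 8.46 in DMSO. Ifih1, an RNA sensor, was not detected in DMSO and rose at least 1.33-fold. Irf8, a factor of B and myeloid cells, fell by 0.62, and Socs2, a suppressor of cytokine signals, by 1.29. The probes of Ifnb1 and Irf7 were not detected.

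The interferon-stimulated response element was searched in the same way, as 10 letters with any base at the 2 middle places. It occurred in 13 of the 24 measured effectors with a promoter window, in 3.44% of all windows and in 3.66% of tested genes. Of the 15 effectors called higher with a window 9 held it, and some effectors not called held it too. Isg15 (chr4:156200819-156201068, minus strand) and Rsad2 (chr12:26456453-26456702, minus strand) were the called members with the largest rise that held it. Isg15 has 3 matches that overlap one another between -78 and -57, and Rsad2 has 1, at -120 to -111 on the opposite strand.
Isg15: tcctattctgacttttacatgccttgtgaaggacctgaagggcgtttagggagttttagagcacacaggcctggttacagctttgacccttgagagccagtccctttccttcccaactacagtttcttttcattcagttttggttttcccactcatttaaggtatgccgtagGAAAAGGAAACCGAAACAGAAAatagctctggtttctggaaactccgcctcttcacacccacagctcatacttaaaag
Rsad2: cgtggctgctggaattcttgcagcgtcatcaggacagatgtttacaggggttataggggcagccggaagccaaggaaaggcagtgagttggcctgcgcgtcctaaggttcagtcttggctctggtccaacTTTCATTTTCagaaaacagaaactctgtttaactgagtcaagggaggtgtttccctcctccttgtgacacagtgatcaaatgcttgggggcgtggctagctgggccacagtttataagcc

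Genes of antigen presentation rose for class I and were split for class II and co-stimulation. Of 18 class I genes 9 were called higher and 0 lower. H2-K1, a classical heavy chain, stood at 6.99 and 7.15 in VE-821 and at 5.28 and 5.52 in DMSO, and B2m, the shared light chain, at 12.87 and 12.78 in VE-821 and 11.80 and 11.74 in DMSO, differences of 1.67 and 1.06. H2-Q7 had a difference of 1.89. Class I heavy chains are close copies of one another, so the reading of a single one is uncertain.

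Of 10 genes of class II presentation and co-stimulation 5 were called higher and 3 lower. Cd274, the ligand PD-L1, stood at 6.95 and 7.49 in VE-821 and at 5.18 and 5.32 in DMSO, a 3.91-fold rise. Cd83, an activation marker, rose at least 2.61-fold, and Icam1, an adhesion ligand, rose 2.56-fold. Cd74, the class II invariant chain, rose 2.11-fold, while H2-Ob, part of a class II chaperone, fell by 0.89. Cd24a, a marker of immature B cells, fell by 1.01. Outside that list, Cd69, the early activation antigen that holds lymphocytes in tissue, had 10.13 and 9.88 in VE-821 and 6.87 and 7.16 in DMSO, a 7.96-fold rise.

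**Figure D3:**
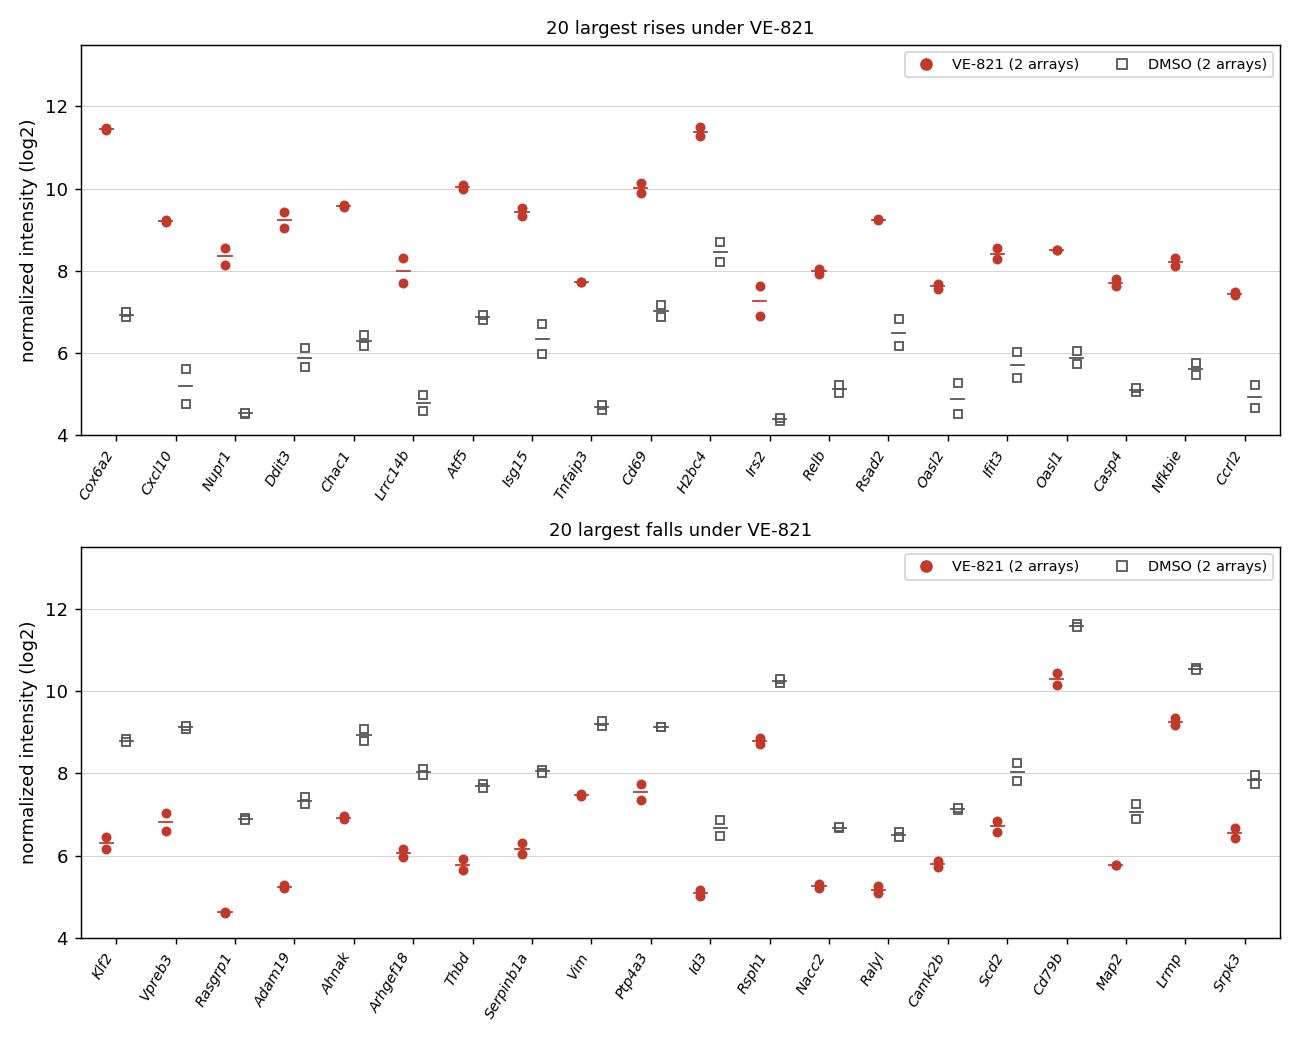
Normalized log2 intensity on each array for the 20 largest rises (upper panel) and the 20 largest falls (lower panel) among called genes, VE-821 as red circles to the left of DMSO as open squares, with lines at the means of 2 arrays. Every gene shown has both VE-821 arrays on one side of both DMSO arrays, from Cox6a2 (difference 4.52) to Klf2 (-2.50).

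Every gene in that plot was picked on the condition that the arrays of the 2 groups did not overlap, which held for 65.5% of all genes tested. The largest rise was of Cox6a2, the muscle-type isoform of a cytochrome c oxidase subunit, which stood at 11.41 and 11.48 in VE-821 and at 6.87 and 6.99 in DMSO (difference 4.52, SE 0.10, adjusted p = 2.42e-10). It stood apart from the rest of the respiratory chain, where 61 of 64 measured genes were not called and the median was -0.02. Its ubiquitous counterpart Cox6a1, named after its value was seen, had a difference of 0.06. Lrrc14b, detected on 1 of 2 DMSO arrays, rose 9.29-fold, and Irs2, an adaptor of the insulin receptor, rose at least 6.04-fold.

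Histone genes differed by class. All 10 measured H2B genes and all 10 measured H4 genes were called higher, with medians of 2.15 and 1.77. H2bc4 stood at 11.27 and 11.50 in VE-821 and at 8.20 and 8.70 in DMSO (difference 2.93, SE 0.15, adjusted p = 2.17e-07), and H4c18 at 9.46 and 9.52 in VE-821 and 6.80 and 7.24 in DMSO. Of 13 measured H2A genes with an H2ac symbol, by contrast, 3 were higher, 0 lower and 10 not called, and their median was -0.08. The difference between classes was not tested.

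Of 9 H3 genes 6 were called higher and 1 lower, with a median of 0.83, and 3 of 4 linker H1 genes were higher, led by H1f2 (2.16). H3c7, the lower one, read 7.27 and 6.60 in VE-821 and 7.78 and 7.60 in DMSO, with a difference of -0.76 that missed the test when VE-821 replicate 2 (-0.43, adjusted p = 0.164) was dropped, when DMSO replicate 1 (-0.67, adjusted p = 0.107) was, and with no filter on detection (adjusted p = 0.102). The other 7 genes, grouped by symbol as replacement variants, had 2 higher and 2 lower. The group holds the H2A genes H2ax and H2aw, and the higher ones were H2aw (0.67) and H3f3b (0.42). These were named after their values were seen. Over all 53 histone genes 34 were higher and 3 lower; without any 1 of the arrays 32 or 33 were higher and 0 to 3 lower. Core histone genes of a class are close copies of one another, so the reading of a single gene is uncertain, and most of their mRNAs carry no poly(A) tail. The labels do not say how the RNA was primed for labelling.

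**Figure D4:**
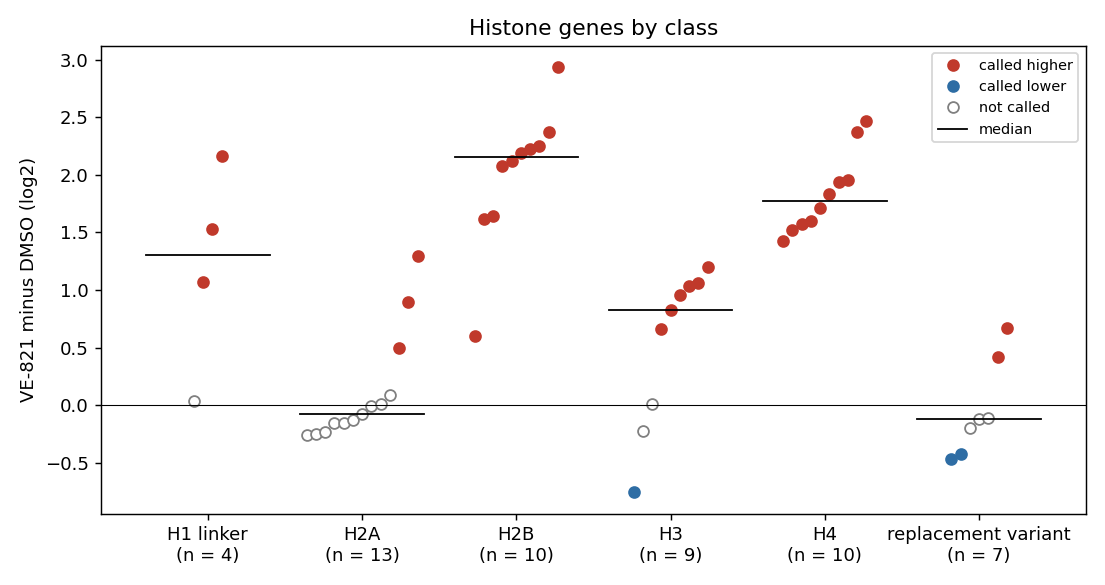
Difference of VE-821 minus DMSO (log2) for each measured histone gene by class, red where called higher, blue where called lower, open where not called, with a line at the median of the class. The 10 H2B and 10 H4 genes all lie above 0, with medians of 2.15 and 1.77, while 10 of 13 H2A genes lie near 0.

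Genes of the ATR and CHK1 axis fell or were not called. Of 26 measured members 8 were called lower and 0 higher, with a median of -0.25, and leaving out any 1 of the 4 arrays left 2 to 5. Clspn, the mediator through which ATR activates CHK1, stood at 8.99 and 8.91 in VE-821 and at 9.80 and 9.74 in DMSO, a 1.77-fold fall (adjusted p = 0.000234). Cdc25b, a phosphatase that activates CDK1, fell by 0.74. Chek1 itself read 5.77 and 5.66 in VE-821 and 5.91 and 6.05 in DMSO, and its difference of -0.26 did not pass the test (adjusted p = 0.129). Atrip had a difference of 0.13 (adjusted p = 0.428), and Atr had no named probe.

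Mitotic genes formed the list with the most falls. Of 43 measured G2 and mitosis genes 29 were called lower and 0 higher, with a median of -0.45. Dropping VE-821 replicate 1 left 17 and dropping its replicate 2 left 20, while dropping DMSO replicate 1 left 17 and dropping its replicate 2 left 19. Stmn1, which destabilises microtubules, stood at 9.52 and 9.44 in VE-821 and at 10.44 and 10.62 in DMSO, a 2.08-fold fall. Kif23, a motor of cytokinesis, fell by 0.87, Foxm1, the transcription factor of the mitotic programme, by 0.76 and Cdk1, the mitotic kinase, by 0.70.

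Replication, nucleotide and repair genes fell in part. In the DNA replication list 17 of 40 were called lower and 1 higher, with a median of -0.28. Dropping VE-821 replicate 1 left 10 lower and dropping its replicate 2 left 6, while dropping DMSO replicate 1 left 9 and dropping its replicate 2 left 8. Prim2, a primase subunit, read 6.86 and 6.72 in VE-821 and 7.56 and 7.65 in DMSO. Nucleotide supply held larger falls: Tk1, thymidine kinase, fell by 1.12, Rrm2, the regulated subunit of ribonucleotide reductase, by 1.08 and Dck, deoxycytidine kinase, by 0.86. That list had 9 of 28 lower and 2 higher, with 5 to 7 lower and 0 or 1 higher without 1 of the arrays. Of 46 DNA repair genes 15 were lower and 2 higher, with 6 to 11 lower and 0 or 1 higher without 1 of the arrays, led by Rad54l, a motor of homologous recombination, at -0.86.

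In G1 regulation 9 of 20 genes were called lower and 0 higher, and 4 to 7 lower without 1 of the arrays. E2f2, an activator of S-phase genes, stood at 9.27 and 9.05 in VE-821 and at 10.36 and 10.46 in DMSO, a 2.38-fold fall (adjusted p = 0.000123). The pocket protein gene Rb1 fell by 0.77. Among CDK inhibitors Cdkn2b rose 2.44-fold, Cdkn2c and Cdkn2d fell by 0.51 and 0.76, and Cdkn1b (0.28, adjusted p = 0.0838) was not called. Cdkn1a, the p53 target p21, read 5.53 and 5.40 in VE-821 and 5.08 and 5.07 in DMSO; its difference of 0.39 passed the test (adjusted p = 0.0335) but missed it under 6 alternatives, among them each of the 4 arrays left out (adjusted p 0.0612 to 0.17).

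Genes known as p53 targets did not move as a block, with 11 of 29 higher and 5 lower. Over all genes tested 12.3% were higher and 12% lower, so rises in this list were above that share. The median was -0.09 (-0.06 with undetected members at their bounds). Without 1 of the arrays 7 or 8 were higher and 2 or 3 lower. Pmaip1, the BH3-only protein NOXA, stood at 6.68 and 6.87 in VE-821 and at 4.77 and 4.63 in DMSO, where 1 of 2 arrays detected it, a 4.2-fold rise, and Bbc3, the BH3-only protein PUMA, at 10.37 and 10.35 in VE-821 and 8.80 and 9.25 in DMSO. Mdm2, the p53 ubiquitin ligase, had 3 kept probes, of which 1 was called higher (0.34), 1 lower (-0.46) and 1 in neither direction. The higher one, its brightest, missed the test under 5 alternatives, among them each of the 4 arrays left out (adjusted p 0.0592 to 0.205). Trp53 had no named probe.

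Pro-apoptotic genes, Pmaip1 and Bbc3 among them, went both ways, with 5 of 22 higher and 6 lower, or 3 or 4 lower without 1 of the arrays. Casp4, an inflammatory caspase, rose 6.09-fold, Casp1, another of that kind, 2.17-fold and Bcl2l11, the BH3-only protein BIM, 1.7-fold, while Bmf, a further BH3-only protein, fell by 0.66. Of the survival genes Mcl1 (-0.14, adjusted p = 0.373) and Bcl2 (-0.31, adjusted p = 0.0849) were not called.

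B cell receptor genes fell in part. Vpreb3, a protein that assists assembly of the B cell receptor, stood at 7.04 and 6.59 in VE-821 and at 9.08 and 9.16 in DMSO, a 4.94-fold fall (adjusted p = 8.55e-07). Rasgrp1, which links receptor signals to Ras, was not detected in VE-821 and fell at least 4.73-fold. Cd79b and Cd79a, the signalling chains of the receptor, fell by 1.31 and 0.80, and Rag1, a recombinase of immature lymphocytes, by 1.15. In this list 10 of 23 measured genes were called lower and 1 higher.

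Lineage transcription factors were divided, with 11 of 23 lower and 5 higher. Klf2, which keeps lymphocytes quiescent and controls their trafficking, had the largest fall of all genes, to 6.44 and 6.16 in VE-821, against 8.83 and 8.77 in DMSO (difference -2.50, SE 0.14, adjusted p = 3.22e-07). Id3, an inhibitor of E proteins, fell 2.98-fold and Ikzf1, a lymphoid zinc finger factor, fell by 0.88. Mef2b and Bcl6, which work in germinal centre B cells, went the other way, with differences of 2.07 and 1.08; Mef2b was detected on 1 of 2 DMSO arrays.

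Of 21 adhesion and migration genes 13 were called lower, 3 of them by at least 2-fold, and 3 higher, with a median of -0.49 and 9 or 10 lower without 1 of the arrays. Adam19, a membrane metalloprotease, stood at 5.27 and 5.21 in VE-821 and at 7.43 and 7.25 in DMSO, and Ahnak, a large scaffold protein, at 6.88 and 6.96 in VE-821 and 9.09 and 8.79 in DMSO. Vim, the intermediate filament vimentin, fell 3.35-fold. Outside the lists, Arhgef18, a guanine nucleotide exchange factor, Thbd, thrombomodulin, and Serpinb1a, an inhibitor of neutrophil proteases, had differences of -1.97, -1.91 and -1.88.

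Lipid synthesis genes fell in part. Of 19 cholesterol synthesis genes 10 were called lower and 1 higher, with 3 to 7 lower without 1 of the arrays. Lss, lanosterol synthase, fell by 0.76 and Hmgcs1, the first committed synthase of the pathway, by 0.65, to 11.25 and 11.22 in VE-821, against 11.85 and 11.92 in DMSO. Scd2 and Scd1, fatty acid desaturases, had differences of -1.32 and -1.01. In growth machinery few genes were called lower, while over all genes tested 12.3% were called higher and 12% lower. The share of rises among ribosomal protein and ribosome biogenesis genes was near that over all genes. Ribosomal protein genes had 7 of 56 higher and 0 lower, ribosome biogenesis genes 5 of 39 higher and 0 lower, and proteasome genes 2 of 37 higher and 3 lower. Without 1 of the arrays these lists had 3 to 5, 2 to 4 and 0 or 1 members higher, and the proteasome list 0 to 2 lower.

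Several early-response genes and stress-linked factors rose. Of 31 immediate early and MAP kinase phosphatase genes 15 were called higher and 1 lower, beside 12.3% and 12% over all genes tested. Of these 31, 7 were detected on both VE-821 arrays but not on both DMSO arrays, against 354 of 7587 over all genes. Such genes were kept only through their VE-821 signal. The median was 0.33 (0.22 with undetected members at their bounds). Dusp1, a phosphatase of MAP kinases, rose 3.16-fold and Jun, an AP-1 subunit, at least 2.4-fold. Klf6, a zinc finger factor, stood at 9.35 and 9.73 in VE-821 and at 7.14 and 7.27 in DMSO, a 5.04-fold rise. Adm, adrenomedullin, and Bhlhe40, a repressor linked to the clock and to hypoxia, rose 5.23-fold and 4.42-fold. Myc had a difference of 0.35 (adjusted p = 0.0478), which missed the test under 9 alternatives, among them both other normalizations, the authors' values and each of the 4 arrays left out (adjusted p 0.0533 to 0.192).

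The response was set directly against that to RVX2135, to ask where the drugs differed. VE-821 was higher than RVX2135 for 1032 genes (13.6%) and lower for 991 (13.1%). Together these were 2023 genes (26.7%), and they numbered between 1293 and 1445 when 1 of the arrays of these groups was left out. Cox6a2 stood at 11.41 and 11.48 in VE-821 and at 7.45 and 7.44 in RVX2135, and Nupr1 at 8.14 and 8.56 in VE-821 and 4.43 and 4.48 in RVX2135. Cxcl10 was higher in VE-821 by 4.01 (adjusted p = 3.79e-07) and Tnfaip3 by 3.28. Interferon effectors were higher in VE-821 for 23 of 28 and lower for 0, with a median of 1.18. Against DMSO 18 of these 28 were higher, with a median of 0.69.

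For some genes the difference lay in low levels in RVX2135. Fcmr, the receptor for IgM, stood at 9.12 and 8.79 in VE-821, at 5.09 and 5.24 in RVX2135 and at 9.50 and 9.26 in DMSO, and Cd74 at 9.44 and 9.45 in VE-821, at 6.28 and 6.16 in RVX2135 and at 8.35 and 8.39 in DMSO. In the other direction lay cholesterol synthesis, with 15 of 19 genes lower in VE-821 and 0 higher. The difference was -1.80 for Hmgcs1 and, in fatty acid desaturation, -2.55 for Scd2. Both genes fell by less against DMSO, as given above. Histones divided, with 13 of 53 higher and 14 lower in VE-821, 7 of 9 H3 genes among the lower ones. For mitosis genes 2 of 43 were higher in VE-821, 6 lower and 35 not called, near the 5564 of 7587 not called over all genes. Cdk1 was among those not called, with a difference of -0.02 (SE 0.10). DNA replication genes differed more, with 16 of 40 higher in VE-821 than in RVX2135 and 1 lower, and a median of 0.28. Over all genes 13.6% were higher and 13.1% lower.

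**Figure D5:**
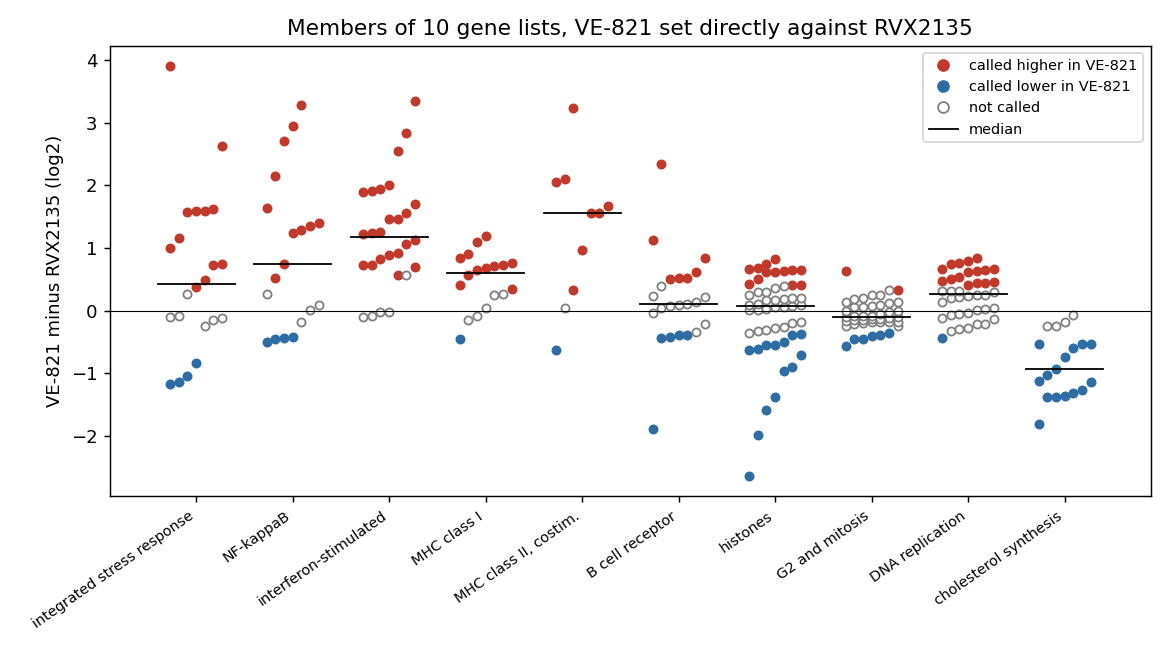
Difference of VE-821 minus RVX2135 (log2) for each measured member of 10 gene lists, red where called higher in VE-821, blue where called lower, open where not called, with a line at the median of each list. Interferon-stimulated genes lie mostly above 0 (median 1.18) and cholesterol synthesis genes mostly below (median -0.94).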

How the data were processed

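The 8 RNA samples, 2 per group, were hybridised to Illumina mouse arrays. The deposited table holds non-normalized bead intensity and a detection p-value per probe and array; per the submitters' processing notes the software was GenomeStudio, with no version. Some intensities lie below 0, so background had been subtracted before deposit, by a method that neither labels nor headers state. Intensities of all 25697 probes on the 8 arrays were corrected from the detection p-values, raised by an offset of 16, quantile normalized and put on a log2 scale with neqc of limma 3.58.1 (R 4.3.3). The authors' deposited normalized values, a linear intensity table, served as an alternative only.

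Probe names came from the array's annotation: 23978 probes had 1 symbol, 16 of which had no current match and kept the old one, and 1719 had none. Probes with a detection p under 0.05 on both arrays of VE-821 or both of DMSO were kept. One model with a mean per group was fitted to the 8 arrays and moderated with eBayes, which gave 4 residual degrees of freedom. Benjamini-Hochberg adjustment ran over all 10530 kept probes. The brightest kept probe stood for a gene. Where a gene was not detected on any array of 1 group, the fold is a bound against the lowest detected signal of those arrays. Each of the 8 arrays had 42.9% to 44.7% of its probes detected, and 2 arrays per group limit the precision.

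Genes were named by rule: the 20 largest rises and 20 largest falls among calls without overlap, up to 6 members per list with the smallest adjusted p, 8 each way between VE-821 and RVX2135, and a fixed set of pathway genes. The comparison, the 48 lists and the fixed genes were chosen with earlier results of these data known. The fit was tested on simulated data whose noise was independent and drawn from the spread that the fit itself had estimated. Such a test cannot show how far the replicate arrays here depend on each other. The sample descriptions give every replicate 1 array the letter A and every replicate 2 array the letter B, without saying what the letters stand for. Replicate numbers were not taken as pairs in the main fit, and a replicate block was an alternative. Promoter sequences are RefSeq's, build GRCm38.p6. Other normalizations, the offset, the filter, a replicate block and each array left out were tried as alternatives.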

Additional observations from a re-analysis of the deposited data

Results flagged for a closer look

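Probes without a gene name took no part in the comparison, and 663 of them were detected by the same rule. Of these 75 were higher and 79 lower in VE-821, 23.2% in all. The 2 largest differences each way are given as values. Probe ILMN_1225528 stood at 10.23 and 10.31 in VE-821 and at 6.58 and 6.87 in DMSO, a difference of 3.55. Probe ILMN_1244279 stood at 6.66 and 7.11 in VE-821 and at 4.35 and 4.68 in DMSO, where 1 of 2 arrays detected it, a difference of 2.37. Probe ILMN_3009860 stood at 6.88 and 6.32 in VE-821 and at 9.19 and 9.01 in DMSO, a difference of -2.50. Probe ILMN_1245447 stood at 5.94 and 5.61 in VE-821 and at 7.35 and 7.20 in DMSO, a difference of -1.50.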

How the results depend on the processing

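Of 260 named genes with a call, 61 lost it under at least 1 alternative and 199 kept it under each alternative that tested them; none changed direction. Requiring detection on all 4 arrays left 264 of the 295 named genes to test. Leaving out 1 array, which leaves its group with a lone array assumed to vary like the other groups, changed the total counts most. For VE-821 against DMSO it gave 896 to 1265 genes in all, 489 to 692 higher and 407 to 573 lower, and 1154 to 1662 probes in all, 625 to 855 higher and 529 to 807 lower. For VE-821 against RVX2135 it gave 1293 to 1445 genes in all, 686 to 763 higher and 603 to 682 lower. Members of the DNA replication list called lower numbered 6 to 10 against 17 with all arrays, and of the G2 and mitosis list 17 to 20 against 29. Without a filter on detection the DNA replication count was 11. Requiring detection on all 4 arrays gave 13 integrated stress response, 9 NF-kappaB and 31 histone genes higher and 8 B cell receptor genes lower, against 15, 11, 34 and 10, as it tests fewer genes. Interferon-stimulated genes called higher numbered 15 under that setting and 15 without a filter on detection, against 18. The causes were not tested, apart from the fewer arrays in each such fit. Over the other settings the genes called in all ranged between 1482 (no filter on detection) and 2137 (offset of 50). Among called probes, not genes, the share that was higher lay between 47.2% and 54.2% over all settings. The replicate number as a block gave 1908 called genes, 963 higher and 945 lower. Deviations of same-numbered arrays from their group means correlated at -0.0256 between VE-821 and DMSO and between 0.00197 and 0.163 for the other pairs of groups, so the numbers were not taken as pairs. Probes near background have wide errors here, and a small fold cannot be told from none at 2 arrays per group.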

Other observations

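Receptors for antibody differed in direction. Fcgr3, an activating receptor for IgG, stood at 5.83 and 6.08 in VE-821 and at 4.61 and 4.90 in DMSO, where 1 of 2 arrays detected it, a 2.29-fold rise. The inhibitory receptor Fcgr2b stood at 8.99 and 8.73 in VE-821 and at 9.59 and 9.57 in DMSO, and Fcrla, an Fc receptor relative that stays inside B cells, at 10.48 and 10.36 in VE-821 and 11.47 and 11.48 in DMSO, both called lower. Of 5 measured receptors of this kind 1 was higher and 2 lower.

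Of 20 glycolysis genes 2 were called higher, 4 lower and 14 in neither direction, and 1 to 4 lower without any 1 of the arrays. Over all genes tested 12.3% were called higher, 12% lower and 5743 of 7587 in neither direction. The share of rises among glycolysis genes was near that over all genes. Pfkp, a phosphofructokinase, stood at 10.03 and 10.04 in VE-821 and at 9.33 and 9.28 in DMSO, a difference of 0.73. Pdk3, a kinase that inhibits pyruvate dehydrogenase, stood at 7.29 and 6.89 in VE-821 and at 7.92 and 7.81 in DMSO, a difference of -0.78.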
